A study of Mus musculus with 9 samples.

Results

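Saa3, Lcn2, C3, Il6, Il1b, Tnf, Icam1, Vcam1, Sele and Selp are 10 genes of the acute phase, cytokine and leukocyte adhesion response. They were taken by gene name from the authors' expression table, where all 10 were found among 27207 genes, each with 1 identifier. The table came from bulk RNA sequencing of whole mouse lungs at E18.5, shortly before birth, with 3 libraries in each of 3 groups. Strong CKO lungs were hypoplastic with widespread haemorrhage in the parenchyma, weak CKO lungs were hypoplastic without haemorrhage, and both carried Tbx4-rtTA with Tet-O-Cre, and the Dnmt1-D/D alleles. Wild type lungs were the controls, and the labels gave no strain, inducer dose, or transgene carried by them. Tbx4-rtTA is a driver used to direct Cre to lung mesenchyme, so cells outside that lineage may retain Dnmt1 in the CKO lungs. Groups were defined by what the lungs looked like, and haemorrhage and genotype cannot be told apart in the strong CKO group set against wild type.

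Acute phase proteins are secreted in large amounts during inflammation, by the liver and, for Saa3 and Lcn2, also by epithelia, macrophages and fibroblasts. Their genes are switched on by the cytokines IL-1β, TNF and IL-6, which act through the transcription factors NF-kB, C/EBP and STAT3. The same cytokines make endothelium display the selectins and the immunoglobulin-type receptors ICAM-1 and VCAM-1, on which leukocytes roll and then hold fast. In lung, ICAM-1 is also present on alveolar epithelium, and VCAM-1 is also present on cells other than endothelium.

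RefSeq promoter windows on GRCm38.p6, from 250 bases before to 50 bases after the start site, were matched for 9 of the 10 genes, all but Vcam1. The 250 bases before the start site are shown for the 4 genes that were called higher in a CKO group and had an entry, since all of them held a match to the NF-kB-type motif GGNNNTTCC, searched on both strands and given in capitals. The stretches are chr7:46715677-46715926 (minus strand) for Saa3, chr5:30012864-30013113 (plus strand) for Il6, chr17:35202008-35202257 (minus strand) for Tnf and chr9:21015690-21015939 (plus strand) for Icam1.
Saa3: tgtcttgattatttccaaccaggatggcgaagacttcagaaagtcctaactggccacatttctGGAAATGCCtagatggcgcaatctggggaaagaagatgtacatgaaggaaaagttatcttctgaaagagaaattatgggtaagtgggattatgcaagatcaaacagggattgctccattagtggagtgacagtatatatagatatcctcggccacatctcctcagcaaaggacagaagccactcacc
Il6: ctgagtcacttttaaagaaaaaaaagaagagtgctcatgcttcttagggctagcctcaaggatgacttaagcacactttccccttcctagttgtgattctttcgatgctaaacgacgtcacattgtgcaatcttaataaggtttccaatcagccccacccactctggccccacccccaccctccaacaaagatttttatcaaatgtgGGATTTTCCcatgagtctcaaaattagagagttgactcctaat
Tnf: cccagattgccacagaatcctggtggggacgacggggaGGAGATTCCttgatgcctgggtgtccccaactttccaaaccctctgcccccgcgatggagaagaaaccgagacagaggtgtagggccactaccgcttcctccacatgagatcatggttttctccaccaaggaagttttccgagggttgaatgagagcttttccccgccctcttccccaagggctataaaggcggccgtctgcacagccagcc
Icam1: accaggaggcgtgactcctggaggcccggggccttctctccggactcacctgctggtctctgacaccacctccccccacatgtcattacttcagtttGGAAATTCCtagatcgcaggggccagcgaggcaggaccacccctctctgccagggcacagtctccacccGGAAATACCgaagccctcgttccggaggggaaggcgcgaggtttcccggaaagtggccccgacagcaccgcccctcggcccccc
Over the whole 300-base windows, 6 of the 9 genes held the NF-kB-type motif, against 6070 of 32851 RefSeq promoters. The match began 187 bases before the start site in Saa3, 43 in Il6, 212 in Tnf, and 153 and 84 in Icam1, and the other genes with 1 were Sele (145 bases before) and Selp (14 bases before). The C/EBP-type motif TTGCNNAA, on both strands, was in 4 of the 9 (Saa3, Lcn2, C3 and Il6), against 3547 of the 32851 promoters. The STAT-type motif TTCNNNGAA, on both strands, was in 2 of the 9 (Icam1 and Sele), against 2726 of the 32851 promoters, and in Sele it overlapped the NF-kB-type match. A match is a description of the letters, not a bound site. Because DNMT1 keeps methylation at CpG dinucleotides, their number was also counted, although methylation was not measured in these lungs. The windows held 19 CpG in Icam1, 11 in Tnf, 5 in Saa3, 4 in Selp and 3 each in Lcn2, C3, Il6, Il1b and Sele, where the median of all promoters was 7.

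Total counts ran from 25607595 to 33156732 per library, and 19374 genes had enough counts to be tested, among them 8 of the 10. Sele and Selp fell below the filter on low counts. Per-library levels are given as CPM, counts scaled to library size after TMM normalisation, in the order MUT_S_265_5, MUT_S_268_4 and MUT_S_860_3 for strong CKO, MUT_W_265_2, MUT_W_268_3 and MUT_W_549_3 for weak CKO, and WT_265_1, WT_268_1 and WT_549_2 for wild type. A gene is called where its adjusted p from edgeR's quasi-likelihood test was under 0.05. Dnmt1, the targeted gene, averaged 68.6 ± 8.91 CPM in strong CKO, 69.6 ± 10.8 CPM in weak CKO and 99.1 ± 21.0 CPM in wild type (SD, n = 3 each), and was present in every CKO library. It was called lower in strong CKO (adjusted p = 0.0433) and not in weak CKO (adjusted p = 0.0727). The strong CKO call was lost without WT_268_1 (log2 change −0.36), WT_549_2 (−0.54), MUT_W_268_3 (−0.52), MUT_S_265_5 (−0.46) or MUT_S_860_3 (−0.49). It was also lost with upper quartile factors, library totals alone, no filter on low counts, only the groups compared and both log2 RPKM scales (−0.53 to −0.38). In weak CKO it was called without WT_265_1 (−0.65) or MUT_W_549_3 (−0.63), and in DESeq2 (−0.52).

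Saa3 stood far above wild type in both CKO groups, and it is the gene of the 10 with the largest difference. Saa3 (ENSMUSG00000040026, chr7:46711998-46715700, minus strand) encodes serum amyloid A3, the member of its family made mainly outside the liver. It had 139, 102 and 137 CPM in strong CKO lungs, 188, 94.6 and 131 CPM in weak CKO lungs, and 2.13, 0.872 and 2.61 CPM in wild type lungs. Every CKO library lay far above every wild type library, and the CKO groups overlapped each other. Saa3 rose 67.2-fold in strong CKO (on the log2 scale 6.07 ± 0.41, SE; adjusted p = 6.13e-05) and 73.3-fold in weak CKO (6.20 ± 0.41; adjusted p = 7.52e-05). Among the genes called higher it ranked 166 of 2830 by log2 change in strong CKO and 143 of 1761 in weak CKO. Between libraries that share the first number of their names, the CKO level was 65.3 and 117 times that of wild type for MUT_S_265_5 and MUT_S_268_4, and 88.2, 108 and 50.1 times for MUT_W_265_2, MUT_W_268_3 and MUT_W_549_3. The paralogs Saa1 and Saa2, the acute phase forms made in liver, reached at most 0.151 CPM in any library.

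Lcn2 and C3 were already abundant in wild type lungs, and neither was called in the fit of all 9 libraries. Lcn2 (ENSMUSG00000026822, chr2:32384633-32388252, minus strand) encodes lipocalin 2, which binds bacterial iron carriers. Its levels were 65.5, 56.7 and 58.9 CPM in strong CKO, 92.9, 71.8 and 52.5 CPM in weak CKO, and 51.7, 29.3 and 49.2 CPM in wild type. All 6 CKO libraries lay above the 3 wild type libraries, by less than 1 CPM for MUT_W_549_3 over WT_265_1. The log2 changes were 0.48 ± 0.25 in strong CKO (adjusted p = 0.195) and 0.74 ± 0.25 in weak CKO (adjusted p = 0.0836). DESeq2 called Lcn2 in weak CKO (adjusted p = 0.0102), and so did edgeR without MUT_W_549_3 (0.92; adjusted p = 0.0352).

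C3 (ENSMUSG00000024164, chr17:57203970-57228136, minus strand) encodes complement component 3, on which all complement pathways converge. It had 380, 301 and 421 CPM in strong CKO, 526, 333 and 324 CPM in weak CKO, and 424, 166 and 199 CPM in wild type. WT_265_1 alone was as high as the CKO libraries, so that the groups overlapped. The log2 changes were 0.48 ± 0.37 in strong CKO (adjusted p = 0.376) and 0.59 ± 0.37 in weak CKO (adjusted p = 0.348). Without WT_265_1, C3 was called in strong CKO (1.01; adjusted p = 0.0231) and in weak CKO (1.11; adjusted p = 0.0257). MUT_S_265_5 had 0.897 times the level of WT_265_1, and MUT_S_268_4 had 1.81 times that of WT_268_1.

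**Figure D1:**
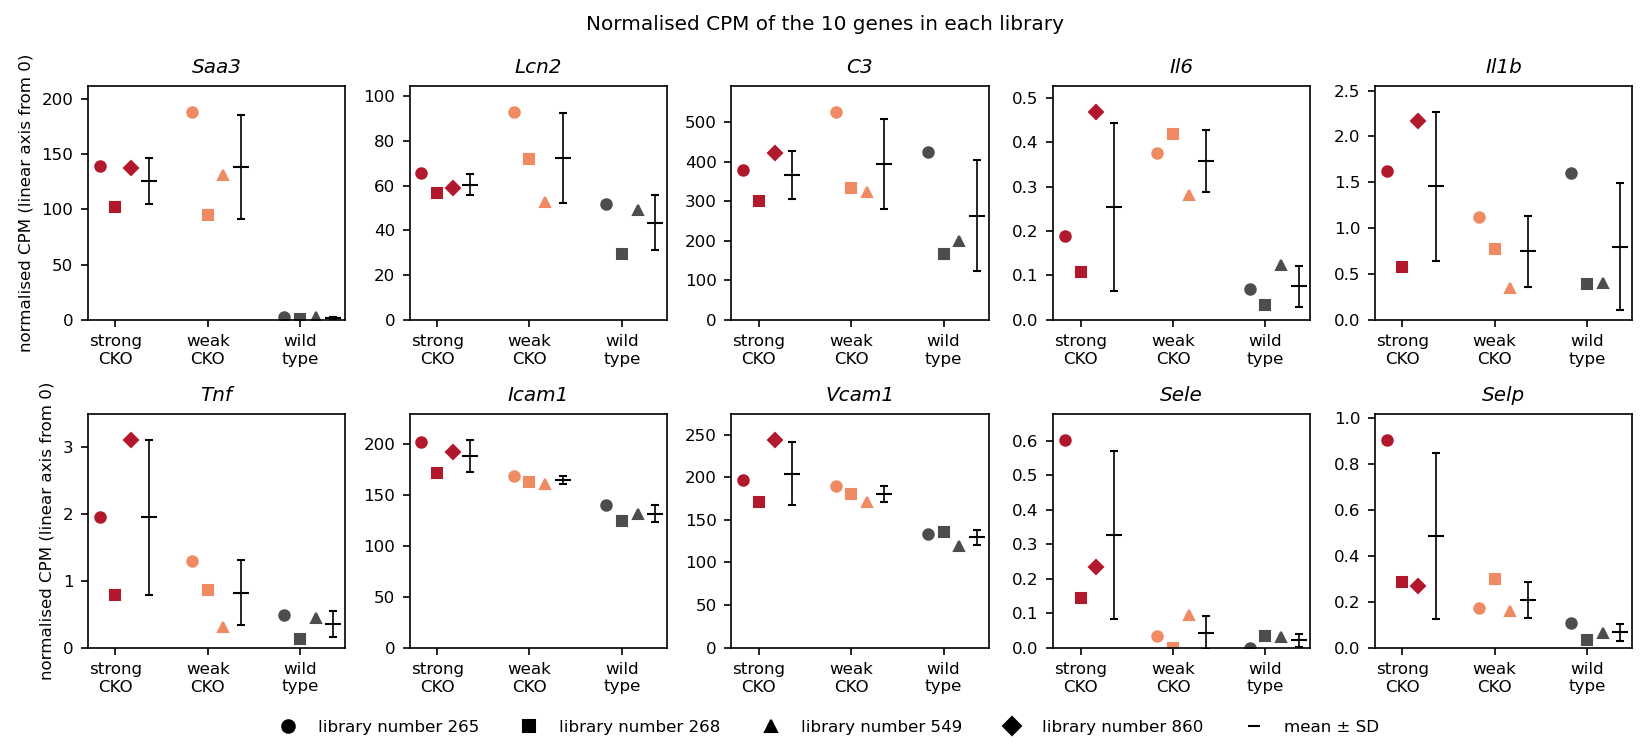
Normalised CPM (y axis, linear, from 0, own scale in each panel) of the 10 genes in each library of strong CKO, weak CKO and wild type (x axis); symbols mark the library number and bars the mean ± SD of 3 libraries. Saa3 lies at 94.6 CPM or more in all 6 CKO libraries and at 2.61 CPM or less in wild type, whereas Il1b overlaps across all groups.

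The cytokine genes were expressed at very low levels, so their counts are given first. Il6 (ENSMUSG00000025746, chr5:30013114-30019981, plus strand), which encodes interleukin 6, had 5, 3 and 14 counts in strong CKO, 11, 14 and 9 counts in weak CKO, and 2, 1 and 4 counts in wild type. These were 0.188, 0.107 and 0.468 CPM in strong CKO, 0.375, 0.418 and 0.282 CPM in weak CKO, and 0.0698, 0.0323 and 0.124 CPM in wild type. All weak CKO libraries lay above all wild type libraries, and MUT_S_268_4 fell within the wild type range. Il6 rose in weak CKO (on the log2 scale 2.17 ± 0.63, SE; adjusted p = 0.0436), on 34 counts against 7, a ratio of 4.7 with a 95% counting interval of 2.05 to 12.6. In strong CKO its change of 1.71 ± 0.67 missed the threshold (adjusted p = 0.0858), and it was called without MUT_S_268_4 (2.07; adjusted p = 0.0437). The weak CKO call rests on few counts: it was lost when any 1 of the 3 wild type libraries, the 3 weak CKO libraries or MUT_S_265_5 was left out (log2 change 1.82 to 2.73, adjusted p = 0.0555 to 0.134), in DESeq2 (2.23; adjusted p = 0.0644), and on the log2(RPKM + 0.1) and log2(RPKM + 1) scales (0.53 and 0.07).

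Tnf (ENSMUSG00000024401, chr17:35199381-35202007, minus strand) encodes tumour necrosis factor, made chiefly by macrophages and lymphocytes. It had 52, 22 and 93 counts in strong CKO, 38, 29 and 10 counts in weak CKO, and 14, 4 and 14 counts in wild type. Its levels were 1.96, 0.785 and 3.11 CPM in strong CKO, 1.29, 0.865 and 0.313 CPM in weak CKO, and 0.488, 0.129 and 0.436 CPM in wild type. All strong CKO libraries lay above wild type with a wide spread among them, and MUT_W_549_3 lay within the wild type range. Tnf rose 5.54-fold in strong CKO (on the log2 scale 2.47 ± 0.66, SE; adjusted p = 0.0216). In weak CKO its change of 1.22 ± 0.68 missed the threshold (adjusted p = 0.28). The strong CKO call was lost without MUT_S_265_5 (2.47; adjusted p = 0.0564), MUT_S_860_3 (1.96; adjusted p = 0.0735), WT_268_1 (2.07; adjusted p = 0.0672) or WT_549_2 (2.67; adjusted p = 0.055).

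Il1b (ENSMUSG00000027398, chr2:129364570-129371139, minus strand) encodes interleukin 1β, which is released after cleavage by caspase 1. It had 1.62, 0.571 and 2.17 CPM in strong CKO, 1.12, 0.775 and 0.345 CPM in weak CKO, and 1.6, 0.388 and 0.405 CPM in wild type. The 3 groups overlapped, with MUT_S_268_4 and WT_268_1 the lowest of their groups. The log2 changes were 0.88 ± 0.66 in strong CKO (adjusted p = 0.364) and −0.09 ± 0.69 in weak CKO (adjusted p = 0.953), and neither was called. An antisense gene, Il1bos, shares 1243 bases with Il1b and had 1 to 8 counts per library. Whether counting used strand is not given in the sources used here.

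Both immunoglobulin-type adhesion genes rose moderately in the CKO lungs, with every CKO library above every wild type library. Icam1 (ENSMUSG00000037405, chr9:21015985-21028817, plus strand) encodes ICAM-1, the receptor for the leukocyte integrins LFA-1 and Mac-1. It had 202, 171 and 192 CPM in strong CKO, 169, 163 and 161 CPM in weak CKO, and 140, 124 and 131 CPM in wild type. The 3 groups did not overlap, with strong CKO highest and wild type lowest, although MUT_S_268_4 at 171 CPM was close to MUT_W_265_2 at 169 CPM. Icam1 rose 1.43-fold in strong CKO (on the log2 scale 0.52 ± 0.07, SE; adjusted p = 0.000891) and 1.25-fold in weak CKO (0.32 ± 0.07; adjusted p = 0.0177). The weak CKO call was lost without WT_268_1 (0.28; adjusted p = 0.0574), WT_549_2 (0.31; adjusted p = 0.052), MUT_W_265_2 (0.30; adjusted p = 0.0688) or MUT_W_268_3 (0.33; adjusted p = 0.0553).

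Vcam1 (ENSMUSG00000027962, chr3:116109949-116129688, minus strand) encodes VCAM-1, the receptor for the integrin α4β1. Its levels were 197, 171 and 244 CPM in strong CKO, 190, 180 and 171 CPM in weak CKO, and 133, 136 and 119 CPM in wild type. Both CKO groups lay above wild type without overlap, and they overlapped each other. Vcam1 rose 1.58-fold in strong CKO (on the log2 scale 0.66 ± 0.12, SE; adjusted p = 0.00277) and 1.39-fold in weak CKO (0.48 ± 0.12; adjusted p = 0.0218). The weak CKO call was lost without WT_549_2 (0.42; adjusted p = 0.079), MUT_W_265_2 (0.44; adjusted p = 0.0784) or MUT_W_268_3 (0.48; adjusted p = 0.0676). Antisense genes overlap both loci, Gm47079 at Icam1 with 1 to 7 counts per library and Gm43109 at Vcam1 with 0 to 5.

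The selectin genes, whose products let leukocytes roll on activated endothelium, were barely detected. Sele (ENSMUSG00000026582, chr1:164048234-164057677, plus strand) encodes E-selectin, made by endothelium. It had 16, 4 and 7 counts in strong CKO, 1, 0 and 3 counts in weak CKO, and 0, 1 and 1 counts in wild type. Every strong CKO library lay above every other library. The ratio of strong CKO to wild type, from 27 counts against 2 scaled to library size, was 14.7 with a 95% counting interval of 3.68 to 127. For weak CKO against wild type it was 1.94, from 4 counts against 2, with an interval of 0.277 to 21.4. The intervals cover counting error only.

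Selp (ENSMUSG00000026580, chr1:164115264-164150026, plus strand) encodes P-selectin, which is stored in endothelium and platelets. It had 24, 8 and 8 counts in strong CKO, 5, 10 and 5 counts in weak CKO, and 3, 1 and 2 counts in wild type. Both CKO groups lay above wild type, and MUT_S_265_5 stood above all other libraries for Selp as for Sele. The count ratio to wild type was 7.24 (95% counting interval 3.05 to 20.9) in strong CKO and 3.23 (1.25 to 9.82) in weak CKO. With no filter on low counts, edgeR's quasi-likelihood test called both selectin genes in strong CKO (Sele 3.67 ± 0.95, adjusted p = 0.0169; Selp 2.81 ± 0.67, adjusted p = 0.0109) and neither in weak CKO (Sele adjusted p = 0.759; Selp adjusted p = 0.2). Gm16587 and Gm16548, on the opposite strand, share 2935 and 1436 bases with Selp. Neither is in the authors' table, so any part of theirs in the few Selp counts is unknown.

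Of the 8 tested genes, 4 were called higher in strong CKO against wild type (Saa3, Tnf, Icam1 and Vcam1) and 0 lower, where 14.6% of the 19374 genes tested were called higher and 11% lower. In weak CKO against wild type, 4 were called higher (Saa3, Il6, Icam1 and Vcam1) and 0 lower, where 9.09% of all genes tested were called higher and 5.38% lower. Il6 passed the filter on low counts through CKO libraries alone, so it was tested only because it was higher there. With only the groups compared it was not tested, and 3 of 7 genes were called higher in weak CKO. The median log2 change of the 8 genes was 0.77 in strong CKO and 0.66 in weak CKO, beside −0.001 and −0.0077 over all genes tested. The weak CKO count was 1 without WT_549_2, MUT_W_265_2 or MUT_W_268_3, and 2 without WT_268_1. Both comparisons use the same 3 wild type libraries.

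**Figure D2:**
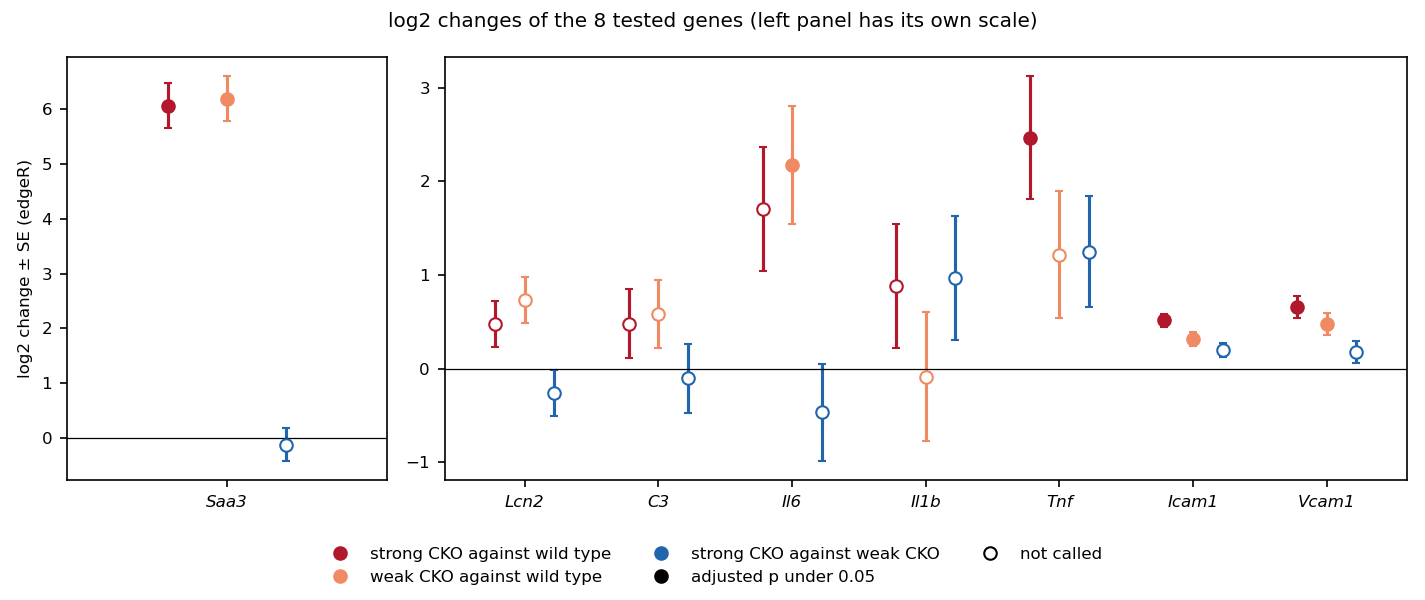
The log2 change ± SE (y axis) of the 8 tested genes (x axis), with Saa3 on a scale of its own; filled points have an adjusted p under 0.05. Saa3 is at 6.07 in strong CKO and 6.20 in weak CKO against wild type, and no point for strong CKO against weak CKO is filled.

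The direct comparison of strong with weak CKO asked whether these genes separate lungs with haemorrhage from those without. It called 0 of the 8 genes in either direction with edgeR's quasi-likelihood test, where 0% of all genes tested were called higher and 0.00516% lower. DESeq2 and limma also called 0 of the 8. At an unadjusted p under 0.05 there was 1, Icam1 (log2 change 0.20 ± 0.07; unadjusted p = 0.0224, adjusted p = 0.873). The larger differences had wide errors, 1.25 ± 0.60 for Tnf (adjusted p = 0.873) and 0.97 ± 0.66 for Il1b (adjusted p = 0.902). Those of Saa3 (−0.13 ± 0.30), Lcn2 (−0.26 ± 0.24), C3 (−0.10 ± 0.37), Il6 (−0.47 ± 0.52) and Vcam1 (0.18 ± 0.12) were not called either. For Sele the strong CKO libraries lay above all weak CKO libraries, with a count ratio of 7.57 (95% counting interval 2.64 to 29.8), and with no filter on low counts the adjusted p was 0.939.

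Levels between genes were compared as RPKM, which divides by the deposited gene length. For Lcn2 (5577 bases) and Tnf (3108 bases) that length exceeds the whole span of the gene (3620 and 2627 bases). Their RPKM may therefore be too low, and their places in the order below are uncertain. In wild type lungs C3 (35.6 ± 19.1 RPKM) and Icam1 (25.3 ± 1.57) led and overlapped, followed by Vcam1 (10.9 ± 0.803) and Lcn2 (7.09 ± 1.99). Saa3 came next at 0.523 ± 0.25 RPKM, within the range of Il1b (0.299 ± 0.262), and Tnf (0.103 ± 0.0567), Il6, Selp and Sele lay lower. In weak CKO lungs Saa3 was second at 38.8 ± 13.3 RPKM, and its range overlapped those of C3 (53.8 ± 15.8) and Icam1 (31.7 ± 0.932). In strong CKO lungs C3 led (50.3 ± 8.3 RPKM), and Icam1 (36.5 ± 3.04) and Saa3 (35.6 ± 5.84) followed with overlapping ranges. The remaining genes, Il6, Il1b, Tnf, Sele and Selp, stayed under 1 RPKM in every library.

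Partner genes were examined in 4 lists. Of 18 tested genes of the acute phase and of IL-6 family signalling, 4 rose and 2 fell in strong CKO, and 2 rose and 2 fell in weak CKO, with medians of 0.10 and 0.02. These were 22.2% higher and 11.1% lower in strong CKO, and 11.1% each way in weak CKO, beside 14.6% higher and 11% lower in strong CKO and 9.09% higher and 5.38% lower in weak CKO over all genes tested. Leaving out 1 library gave 4 to 5 higher and 1 to 3 lower in strong CKO (1 lower without WT_265_1, WT_549_2 or MUT_S_265_5), and 1 to 2 higher and 0 to 2 lower in weak CKO (1 higher unless MUT_S_268_4 was the one left out, and 0 lower without WT_265_1, MUT_W_265_2 or MUT_W_268_3). Haptoglobin, Hp, an acute phase protein that binds free haemoglobin, averaged 600 ± 66.8 CPM in strong CKO, 537 ± 157 CPM in weak CKO and 249 ± 43.6 CPM in wild type, and rose in both (log2 change 1.27 ± 0.20 in strong CKO and 1.11 ± 0.20 in weak CKO). In strong CKO the STAT3 feedback inhibitor Socs3 (0.65 ± 0.12) and Stat3 itself (0.37 ± 0.08) also rose. The cytokine gene Lif rose in both groups (0.96 ± 0.21 in strong CKO and 0.75 ± 0.21 in weak CKO). The LIF receptor gene Lifr (−0.37 ± 0.07 in strong CKO and −0.29 ± 0.07 in weak CKO) and the pentraxin gene Ptx3 (−0.99 ± 0.27 in strong CKO and −0.94 ± 0.26 in weak CKO) fell in both. The strong CKO call of Ptx3 was lost without WT_265_1 (−0.83), WT_549_2 (−0.96), MUT_S_265_5 (−0.89) or MUT_S_860_3 (−0.95). In weak CKO each of these 3 lost the call without MUT_W_265_2, MUT_W_268_3 or WT_265_1, Lifr and Lif also without WT_268_1, and Ptx3 and Lif also without WT_549_2, MUT_W_549_3 or MUT_S_860_3. Lif lost it without MUT_S_265_5 as well, and on the log2(RPKM + 0.1) and log2(RPKM + 1) scales (0.58 and 0.19). Lif and Ptx3 also lost it when the fit held only the groups compared (0.76 and −0.94). In weak CKO, leaving out 1 library gave 0.59 to 0.87 for Lif, −0.32 to −0.25 for Lifr and −1.13 to −0.72 for Ptx3.

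Among 28 tested genes of IL-1, TNF and NF-kB signalling, 9 rose and 1 fell in strong CKO, and 5 rose and 1 fell in weak CKO. These were 32.1% higher and 3.57% lower in strong CKO, and 17.9% higher and 3.57% lower in weak CKO. The medians were 0.42 in strong CKO and 0.31 in weak CKO. In strong CKO 14 were higher without WT_265_1, and in weak CKO 2 were higher without MUT_W_265_2 or MUT_W_268_3 and 3 without WT_268_1, WT_549_2 or MUT_S_860_3. The second TNF receptor gene Tnfrsf1b averaged 24.8 ± 5.53 CPM in strong CKO, 22.5 ± 1.98 CPM in weak CKO and 10.5 ± 2.09 CPM in wild type, and rose in both groups (1.24 ± 0.18 in strong CKO and 1.10 ± 0.18 in weak CKO). The NF-kB subunit gene Relb rose by 1.08 ± 0.15 in strong CKO and 0.69 ± 0.15 in weak CKO. Bcl3, which encodes a nuclear partner of NF-kB p50 and p52, rose in both groups (1.47 ± 0.26 in strong CKO and 0.94 ± 0.26 in weak CKO), as did Nfkb2, which encodes p52 (0.60 ± 0.12 in strong CKO and 0.39 ± 0.12 in weak CKO). Their weak CKO calls were lost on the log2(RPKM + 0.1) scale (Bcl3 0.92, Nfkb2 0.39), on the log2(RPKM + 1) scale (Bcl3 0.57, Nfkb2 0.32), and without WT_268_1, WT_549_2, any 1 of the 3 weak CKO libraries or MUT_S_860_3, and that of Nfkb2 also without WT_265_1 (Bcl3 0.76 to 0.98, Nfkb2 0.37 to 0.41). Rel rose (0.41 ± 0.08 in strong CKO and 0.38 ± 0.08 in weak CKO), and the first TNF receptor gene Tnfrsf1a fell (−0.41 ± 0.08 in strong CKO and −0.35 ± 0.08 in weak CKO). The weak CKO calls of both were lost without MUT_W_265_2 (Rel 0.35, Tnfrsf1a −0.30) or MUT_W_268_3 (Rel 0.37, Tnfrsf1a −0.29), and that of Tnfrsf1a also without WT_549_2 (−0.34) or with only the groups compared (−0.35). The weak CKO call of Relb was lost on the log2(RPKM + 1) scale (0.23).

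Of 15 tested complement genes other than C3, 5 rose and 4 fell in strong CKO, and 3 rose and 2 fell in weak CKO, with medians of −0.08 and −0.05. These were 33.3% higher and 26.7% lower in strong CKO, and 20% higher and 13.3% lower in weak CKO. In strong CKO 2 were lower without WT_265_1, MUT_W_268_3 or MUT_S_265_5, and in weak CKO 1 was higher without WT_268_1, WT_549_2, MUT_W_265_2 or MUT_W_268_3. C7, a component of the membrane attack complex, averaged 5.85 ± 1.46 CPM in strong CKO, 8.28 ± 1.81 CPM in weak CKO and 43.4 ± 11.4 CPM in wild type. It fell in both groups (−2.89 ± 0.25 in strong CKO and −2.39 ± 0.24 in weak CKO). C1s1, which encodes the protease that starts the classical pathway, rose by 1.16 ± 0.20 in strong CKO and 1.02 ± 0.20 in weak CKO. The C3a receptor gene C3ar1 rose by 1.79 ± 0.29 in strong CKO and 1.16 ± 0.29 in weak CKO, the second call being lost without WT_268_1 (1.20), WT_549_2 (0.99), MUT_W_265_2 (1.02) or MUT_W_268_3 (1.08), and with no filter on low counts (1.17).

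Among 19 tested counter-receptor and other adhesion genes, 3 rose and 7 fell in strong CKO, and 2 rose and 3 fell in weak CKO, with medians of −0.22 and −0.09. These were 15.8% higher in strong CKO and 10.5% in weak CKO, near the 14.6% and 9.09% of all genes tested, and 36.8% lower in strong CKO and 15.8% in weak CKO. In weak CKO 0 were lower without MUT_W_265_2 or MUT_W_268_3, 1 without WT_549_2 and 5 without WT_268_1, and 1 was higher without WT_268_1, WT_549_2 or MUT_W_265_2. Cd44, the hyaluronan receptor, rose (0.54 ± 0.06 in strong CKO and 0.43 ± 0.06 in weak CKO). The endothelial adhesion gene Esam (−0.53 ± 0.09 in strong CKO and −0.37 ± 0.09 in weak CKO) and the sialomucin gene Podxl (−0.53 ± 0.09 in strong CKO and −0.43 ± 0.09 in weak CKO) fell, as did the junctional gene Jam2 (−0.31 ± 0.09 in strong CKO and −0.34 ± 0.09 in weak CKO). The strong CKO call of Jam2 was lost without WT_265_1 (−0.25), WT_549_2 (−0.33), MUT_S_265_5 (−0.23) or MUT_S_268_4 (−0.30), and with library totals alone (−0.22). The weak CKO calls of Esam, Podxl and Jam2 were lost without MUT_W_265_2 (−0.33, −0.40 and −0.37) or MUT_W_268_3 (−0.36, −0.40 and −0.36). Those of Esam and Jam2 were also lost without WT_549_2 (−0.28 and −0.36), and that of Jam2 without WT_265_1 (−0.28) or MUT_W_549_3 (−0.30). Madcam1, the vascular addressin of gut endothelium, had 40, 13 and 16 counts in strong CKO, 11, 6 and 20 counts in weak CKO, and 0, 2 and 1 counts in wild type, and was called higher in both CKO groups. It passed the filter on low counts through CKO libraries alone, so it was tested only because it was higher there. The counts of adhesion genes that rose include it in both groups. The count ratio to wild type was 25 (95% counting interval 8.2 to 124) in strong CKO and 11.9 (3.78 to 60.5) in weak CKO. The weak CKO call was lost without WT_265_1 (2.94), WT_268_1 (4.27), WT_549_2 (3.40), MUT_W_265_2 (3.46) or MUT_W_549_3 (2.91), and on the log2(RPKM + 0.1) and log2(RPKM + 1) scales (1.11 and 0.18). In strong CKO against weak CKO, 0 genes of all 4 lists were called by edgeR's quasi-likelihood test.

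**Figure D3:**
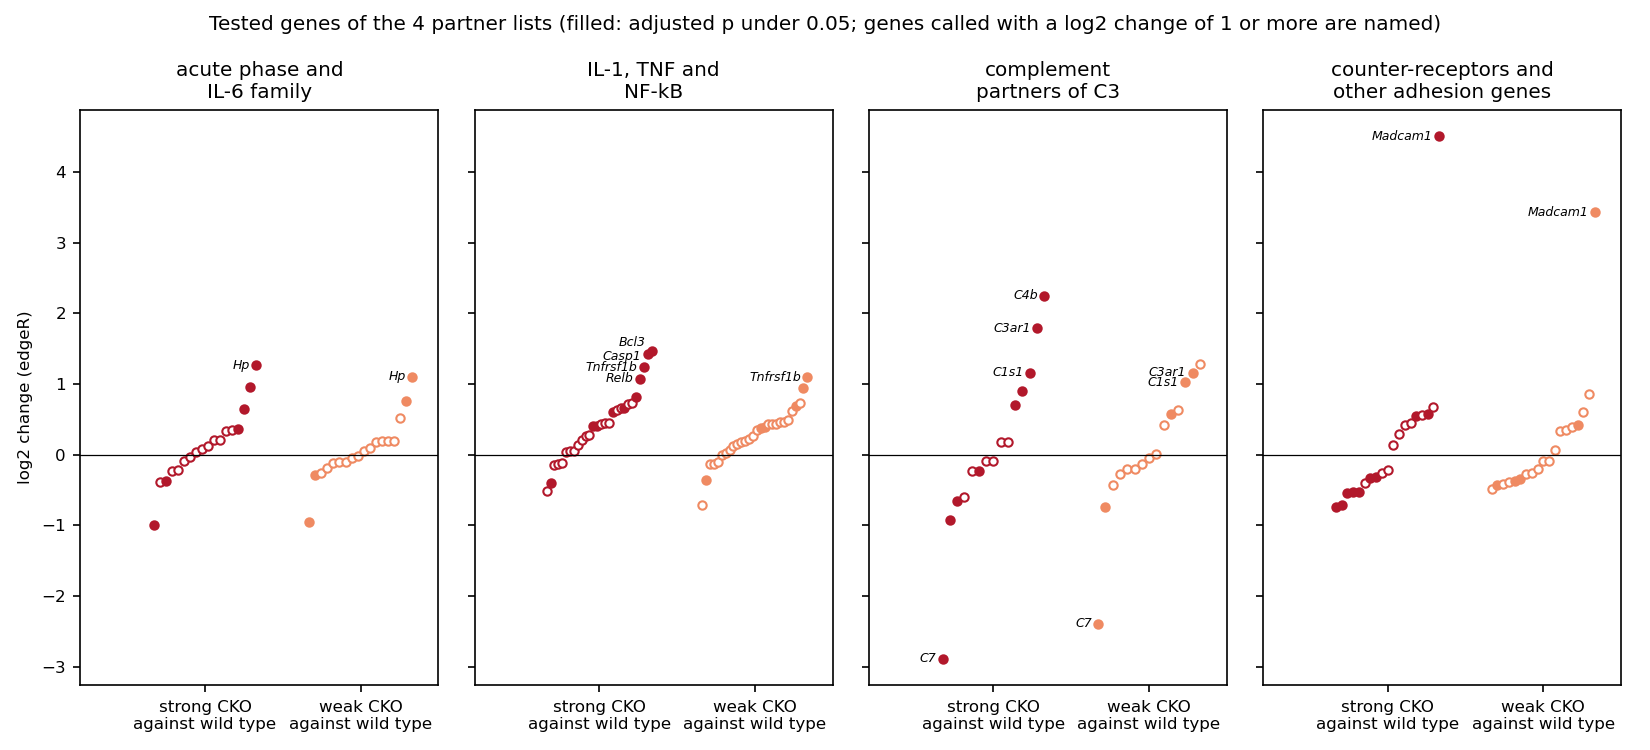
The log2 change (y axis) of each tested gene of the 4 partner lists in strong CKO and in weak CKO against wild type (x axis), ordered by size; filled points have an adjusted p under 0.05. C7 is the lowest point at −2.89 and −2.39, and Hp leads the acute phase list at 1.27 and 1.11.

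Some markers of the cell types that make or display these proteins moved with the groups, while the sums of other marker lists overlapped between groups. Their part in the results was not tested. In whole-lung RNA, fewer cells of a type and less RNA per cell cannot be told apart. Over all genes tested, 14.6% were called higher and 11% lower in strong CKO, and 9.09% higher and 5.38% lower in weak CKO. All 14 endothelial markers fell in strong CKO and 8 of 14 in weak CKO, with 0 rising in either. Leaving out 1 library kept the strong CKO count at 14, whereas the weak CKO count ranged from 1 to 12, with 1 without MUT_W_265_2, 2 without MUT_W_268_3 or WT_549_2 and 5 without WT_265_1. Their summed level ran from 2114 to 2613 CPM in strong CKO, 2749 to 2912 CPM in weak CKO and 3231 to 3980 CPM in wild type. Between group means, Icam1 and Vcam1 were higher where the endothelial sum was lower. Within groups, 3 libraries are too few to decide on such a relation, and it was not tested. In wild type Icam1 was highest (140 CPM) where the sum was highest, and in strong CKO it was highest (202 CPM) where the sum was lowest. In weak CKO it was highest (169 CPM) at the middle sum. Vcam1 did not follow the order of the sum within any group. The highest were Cdh5 (425 CPM in strong CKO, 547 in weak CKO and 737 in wild type) and Pecam1 (449 CPM in strong CKO and 649 in wild type).

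Among 15 macrophage and monocyte markers, 8 rose and 1 fell in strong CKO (53.3% and 6.67%), and 5 rose and 1 fell in weak CKO (33.3% and 6.67%). The strong CKO count was 5 higher without WT_268_1, WT_549_2 or MUT_S_860_3, and the weak CKO count was 9 higher without WT_265_1. Their sum, mostly Lyz2, overlapped between groups, at 939.5 to 1356 CPM in strong CKO, 1162 to 1661 CPM in weak CKO and 905.1 to 1704 CPM in wild type. The complement subunit genes C1qa, C1qb and C1qc, made by macrophages, averaged 42.7, 44.9 and 43.2 CPM in strong CKO, 36.2, 36.6 and 38.8 CPM in weak CKO, and 16.5, 16.3 and 18 CPM in wild type. The marker that fell in both groups was Mertk, at 38.5 CPM in strong CKO, 50.7 CPM in weak CKO and 95.1 CPM in wild type. Lyz2 was not called in either group. Among 11 tested neutrophil markers, of 14 in the table, 1 rose and 1 fell in strong CKO and 1 fell in weak CKO. Each call was 9.09% of the 11, under the shares of all genes in strong CKO and above that in weak CKO. The strong CKO counts went to 0 higher and 0 lower without WT_265_1, WT_549_2, MUT_W_265_2, MUT_W_549_3 or MUT_S_265_5, to 0 higher without WT_268_1 or MUT_S_860_3 and to 0 lower without MUT_S_268_4, and 3 were lower without WT_268_1. The weak CKO count went to 0 without WT_549_2, MUT_W_265_2 or MUT_W_268_3 and to 2 without WT_268_1. Their summed level was 30.77 to 46.14 CPM in strong CKO, 29.33 to 50.71 CPM in weak CKO and 37.82 to 86.81 CPM in wild type. Lymphocyte markers, of which 1 of 4 tested rose in strong CKO (0 without WT_268_1, WT_549_2, MUT_W_549_3, MUT_S_265_5 or MUT_S_268_4), summed to 2.818 to 3.276 CPM in strong CKO, 2.381 to 3.43 CPM in weak CKO and 1.486 to 2.338 CPM in wild type. WT_265_1, the highest wild type library for Lcn2, C3, Il1b, Tnf, Icam1 and Selp, was also the highest for the sums of all 10 marker lists.

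Erythroid markers summed to 6770 to 12700 CPM in strong CKO, 3781 to 4399 CPM in weak CKO and 3954 to 7409 CPM in wild type, led by Hbb-bs. Of these 12 markers 0 were called higher in either CKO group against wild type, and 1, Rhag, was called lower in each. In strong CKO 3 were higher without WT_265_1 and 1 without MUT_S_268_4. The strong CKO call of Rhag was lost without any 1 library but MUT_W_265_2, and its weak CKO call without MUT_W_268_3. In strong CKO against weak CKO 0 of the 12 were called. MUT_S_860_3 had the highest C3, Il6, Il1b, Tnf and Vcam1 of its group. It was also the highest strong CKO library for the sums of 6 of the 10 marker lists, the erythroid, platelet, macrophage, neutrophil, lymphocyte and lung epithelial lists. Platelet and megakaryocyte markers summed to 64.54 to 98.16 CPM in strong CKO, 52.27 to 58.75 CPM in weak CKO and 47.32 to 63.61 CPM in wild type. Of these 9 markers 1 (11.1%), Pf4, rose in strong CKO, under the 14.6% of all genes tested (1 to 3 of 9 with 1 library left out). Of 8 airway secretory markers 6 rose in strong CKO (75%) and 4 in weak CKO (50%). Their sums were 2456 to 4012 CPM in strong CKO, 2304 to 3346 CPM in weak CKO and 1071 to 1734 CPM in wild type. The airway secretory, lymphocyte and liver sums all lay above wild type in every CKO library. For lymphocyte markers the margin was narrow, with a lowest CKO sum of 2.381 CPM and a highest wild type sum of 2.338 CPM. For liver markers it was also narrow, at 53.46 and 53 CPM. A cell source of Saa3 was not tested. Of 10 lung epithelial markers 6 (60%) fell in strong CKO (3 without MUT_W_268_3, 2 without MUT_S_268_4 or MUT_S_860_3 and 1 without MUT_S_265_5). In weak CKO 1 (10%) fell (0 without MUT_W_268_3). The epithelial sums were 11470 to 13010 CPM in strong CKO, 14160 to 14770 CPM in weak CKO and 13810 to 19270 CPM in wild type. Of 9 mesothelial markers, 2 (22.2%) rose in strong CKO and 1 (11.1%) in weak CKO (1 to 2 in each with 1 library left out). The mesothelial sums were 962.7 to 1437 CPM in strong CKO, 910.2 to 1337 CPM in weak CKO and 949.2 to 1748 CPM in wild type. The liver list had 4 tested genes of 10, of which 1, Apob, rose in strong CKO (0 to 2 genes with 1 library left out). Its sum, nearly all Trf, was 54.55 to 87.67 CPM in strong CKO, 53.46 to 85.93 CPM in weak CKO and 29.13 to 53 CPM in wild type. No marker of any list was at 0 counts in every library.

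**Figure D4:**
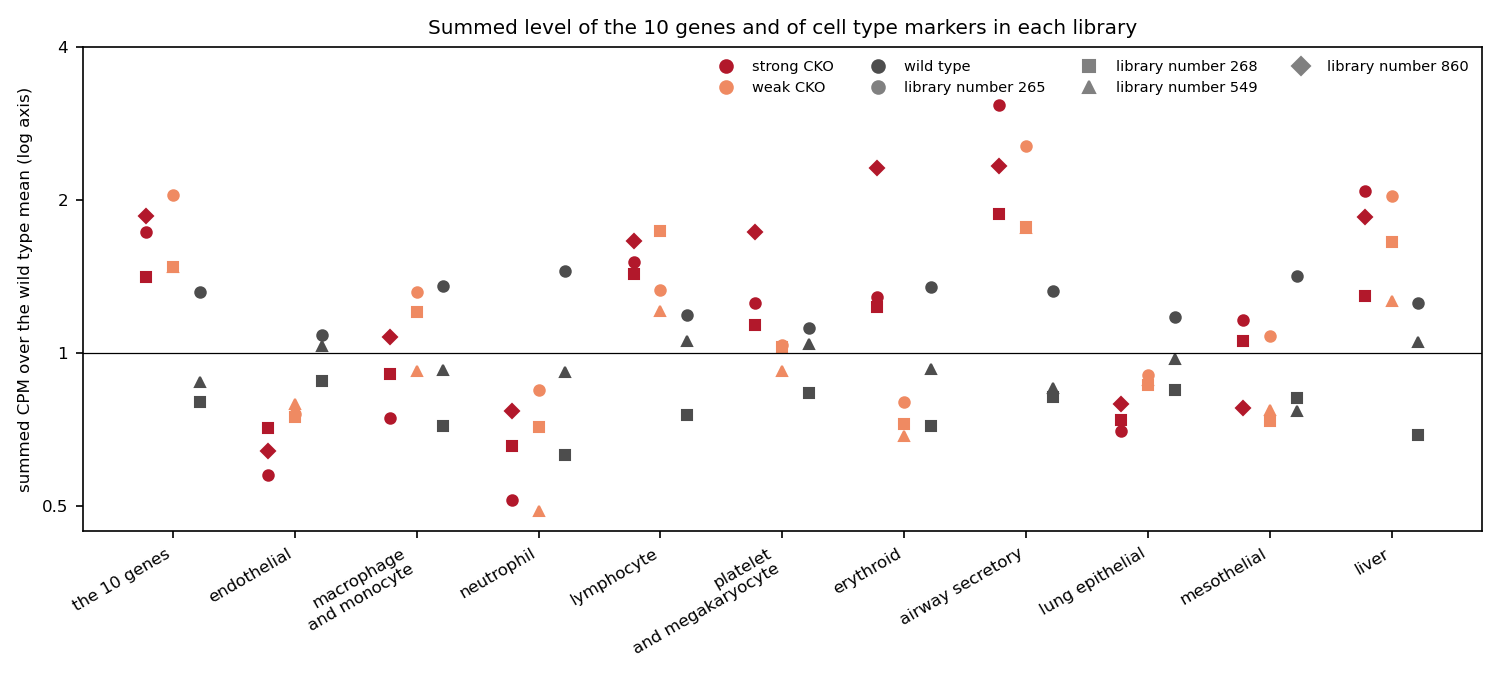
Summed CPM of the 10 genes and of each marker list in every library, divided by the wild type mean (y axis, log scale; x axis, list). Endothelial sums lie below 1 in all 6 CKO libraries, whereas their airway secretory, lymphocyte and liver sums lie above those of all wild type libraries. For the lymphocyte and liver sums the lowest CKO library is only narrowly above the highest wild type library.

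The genes whose log2 CPM followed a called gene most closely over the 9 libraries are given as a description, since all of them share the libraries and the groups. For Saa3 they were Capn11 (Pearson r = 0.991), Tuba3b (0.991) and Pnma5 (0.99). For Il6, at its low counts, they were Chid1 (0.944), Tnfsf13b (0.93) and Pomk (0.924). For Tnf they were Lcp2 (0.978), Ptpre (0.976) and C4b (0.966). For Icam1 they were BC005537 (0.99), Relb (0.986), the NF-kB subunit gene described above, and Fth1 (0.983), which encodes the ferritin heavy chain. For Vcam1 they were Casp12 (0.988), Slc45a4 (0.982) and 2610301B20Rik (0.979).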

How the data were processed

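Whole E18.5 lungs gave the RNA, and per the labels each library was to have 50 M single reads, 75 nt long. Groups were taken from the titles and descriptions. The first number in each library name, shared between groups and here called the library number, is not explained in the sources used here. Nothing states that the lungs came from separate litters, and p-values therefore cover only the spread among these lungs.

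The table deposited by the authors held whole-number counts per gene, not normalised, for each library. It also held RPKM values per the file headers, with the gene lengths deposited by the authors. The RPKM library sizes were 1.03 to 1.13 times the column totals. The submitters' processing notes name the genome GRCm38.p6, STAR, edgeR 3.28.1, Trimmomatic 0.36, cutadapt 2.5 and FastQC 0.11.8. The counting tool and its use of strand are not given in the sources used here. Coordinates came from a GENCODE annotation of GRCm38, in which chromosome and strand matched for 27181 of 27207 identifiers.

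Counts were tested with edgeR 4.0.16 in R 4.3.3, with TMM factors (0.938 to 1.04), filterByExpr by group with a minimum count of 10, 1 mean per group over all 9 libraries, a robust quasi-likelihood fit, two-sided F tests and Benjamini-Hochberg adjustment over the 19374 genes tested, at a threshold of 0.05. The common biological coefficient of variation was 0.15. Standard errors were derived from the log2 change and its F statistic. The code was tested on simulated data. Exact permutation of 3 against 3 has a smallest p of 0.1 and was not used. Count ratios carry exact binomial intervals at 95%, which cover counting error only.

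The genes, lists, markers and tests were chosen with earlier results of these data known. Named genes were the 10 genes, Dnmt1, up to 4 called genes per partner list and comparison with the smallest adjusted p, the highest or called markers of each marker list, and for each called gene the 3 most correlated genes (Pearson, mean log2 CPM of at least 1, prior count 2). Marker genes beyond 2 per list were named after their values were seen. The listed genes Vsig4, Icam4 and Glycam1 were not analysed here. The values of 1 named complement gene are not reported here.

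Alternatives were DESeq2 1.42.0, upper quartile factors, library totals alone, haemoglobin genes left out of the library sizes, no filter, only the groups compared, the library number as a replicate block, limma 3.58.1 on log2(RPKM + 1) and log2(RPKM + 0.1), and each library left out. Replicates correlated at 0.9835 to 0.9882 in log2 CPM, and no pair agreed within sampling noise.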

Additional observations from a re-analysis of the deposited data

How the results depend on the processing

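Across the alternatives, 145 counts of called genes stayed within 1.5 times the value in the report and 17 did not. The 145 include counts that were 0 in the report and under every alternative. Those are the counts of the studied genes called lower in each comparison and called higher in strong CKO against weak CKO. Leaving out 1 library gave 1 to 4 of the 8 genes called higher in weak CKO and 3 to 5 in strong CKO, with 0 called lower in either. Over all genes it gave 1310 to 2828 calls in weak CKO, 3101 to 4983 in strong CKO and 1 to 4 in strong CKO against weak CKO. That last count, 1 in the report, was 14 in DESeq2, 4 with only the groups compared, 3 with the replicate block and 2 with limma on log2(RPKM + 0.1). With library totals alone the called genes split into 3849 higher and 1428 lower in strong CKO (2830 and 2139 with TMM factors) and 2272 higher and 702 lower in weak CKO (1761 and 1042), with medians of 0.0852 and 0.0484 over all genes.

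Of the log2 changes of named genes, 2060 kept their direction and their side of the threshold, 254 lost the call, 9 gained one and 14 changed sign. The changes of sign were in values not called. Il1b in weak CKO, −0.09 in the report, was 0.034 with the replicate block, 0.042 with limma on log2(RPKM + 0.1), 0.90 without WT_265_1 and 0.26 without MUT_W_549_3 (−0.49 to 0.90 over the libraries left out). In strong CKO against weak CKO, Saa3 was 0.16 and C3 0.16 without MUT_W_265_2, and 0.0063 and 0.023 without MUT_S_268_4 (−0.33 to 0.16 for Saa3 and −0.23 to 0.16 for C3). Vcam1 was −0.020 with the replicate block. Dnmt1 was 0.0070 with library totals alone, 0.067 with the replicate block, 0.10 without MUT_W_549_3, 0.048 without MUT_S_265_5 and 0.019 without MUT_S_860_3 (−0.13 to 0.10). The cause of these shifts was not tested.

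The library numbers were not taken to pair the samples, since 4 of the 7 same-numbered pairs of libraries had deviations that correlated over 0.1 (up to 0.346) and the other 3 did not (−0.087 to 0.083). Among the 20 pairs with different numbers 1 was over 0.1, and not every library correlated best with its own number. With the number as a replicate block, 3 of the 8 genes were called in strong CKO, where Tnf lost its call (1.68; adjusted p = 0.0611), and 4 in weak CKO. With the block Dnmt1 was called in weak CKO (−0.50; adjusted p = 0.00867), and Ptx3 lost its strong CKO call (−1.06; adjusted p = 0.0566). Over all genes the block gave 4450 calls in strong CKO and 3926 in weak CKO. Il6 in the comparisons with wild type could not be fitted with only the groups compared, because it fell below the filter on low counts. Il6, Sele and Selp rest on 24 counts or fewer per library, which limits every comparison of them.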
